A study of Mus musculus with 4 samples.

Results

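The insulin-like growth factor (IGF) system was followed across 4 arrays of MC38 cells, a mouse colon adenocarcinoma line, through 10 genes chosen by name out of the 19505 genes named on the array: the ligands Igf1 and Igf2, the receptors Igf1r and Igf2r, and the binding proteins Igfbp2 to Igfbp7. All 10 were measured, each by 1 probe set. The set was put together with the Igf2 levels of the knockout clones in view. Those levels are therefore given below as a description, and nothing is read from a test of them. RNA was read on the Clariom S mouse array, which gives 1 signal per probe set and sample, here on the log2 scale. The samples, with 1 array each, were MC38 WT (the control condition), MC38 MOCK (which carried an empty vector), and the CRISPR-Cas9 knockouts of Mgat5 titled KO T5 clone 1 and KO T5 clone 2. WT and MOCK form the control group and the clones the knockout group, n = 2 per group. The comparison asks how expression in cells without Mgat5, the gene of an N-glycan branching enzyme, differs from that in the controls. Each knockout line is titled as a clone and neither control is, so cloning and loss of Mgat5 cannot be told apart. Whether separate cultures were used is not given in the labels, so p-values here measure only the spread between these arrays. In bulk RNA, fewer cells expressing a gene and less RNA per cell cannot be told apart. Mgat5 itself gave a signal of 7.46 log2 units in clone 1, 7.57 in clone 2, 8.19 in MOCK and 8.27 in WT.

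IGF-1 and IGF-2 are secreted growth factors that bind the receptor tyrosine kinase IGF1R, which signals through insulin receptor substrates to the PI3K-AKT and MAPK pathways. IGF2R, the mannose 6-phosphate receptor, takes IGF-2 into lysosomes and does not signal growth, and the IGF-binding proteins hold the ligands in the extracellular space and limit or prolong their action. Igf2 is an imprinted gene, expressed in most tissues from the paternal copy next to the maternally expressed non-coding gene H19, and its over-expression is a known feature of several tumour types, colorectal cancer among them.

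The mouse Igf2 gene starts from several promoters, and its single probe set cannot tell which of them was in use. The 250 bases before each of the 4 start sites that RefSeq lists for Igf2 (build GRCm38.p6, minus strand, chromosome 7) are shown because Igf2 is the gene on which the results turn. Capitals mark the GC box GGGCGG, the CCAAT box CCAAT and the TATA box TATAAA on either strand. The windows lie at chr7:142666817-142667066, chr7:142661272-142661521, chr7:142658805-142659054 and chr7:142657497-142657746, in the order in which transcription runs.
Igf2 start 1: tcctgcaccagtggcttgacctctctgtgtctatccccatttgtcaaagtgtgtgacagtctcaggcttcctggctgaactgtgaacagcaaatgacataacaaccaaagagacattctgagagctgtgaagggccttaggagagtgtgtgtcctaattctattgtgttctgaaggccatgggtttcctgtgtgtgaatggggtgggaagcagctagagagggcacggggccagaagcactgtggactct
Igf2 start 2: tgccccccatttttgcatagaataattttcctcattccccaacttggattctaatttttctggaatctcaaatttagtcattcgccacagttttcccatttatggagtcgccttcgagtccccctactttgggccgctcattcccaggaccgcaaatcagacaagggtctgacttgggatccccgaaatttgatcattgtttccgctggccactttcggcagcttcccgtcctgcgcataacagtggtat
Igf2 start 3: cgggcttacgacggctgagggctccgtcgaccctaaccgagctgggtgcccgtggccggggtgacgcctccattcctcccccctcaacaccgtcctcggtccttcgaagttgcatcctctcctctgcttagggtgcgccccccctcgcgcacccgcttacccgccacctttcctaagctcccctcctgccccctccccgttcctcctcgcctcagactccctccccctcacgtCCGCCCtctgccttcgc
Igf2 start 4: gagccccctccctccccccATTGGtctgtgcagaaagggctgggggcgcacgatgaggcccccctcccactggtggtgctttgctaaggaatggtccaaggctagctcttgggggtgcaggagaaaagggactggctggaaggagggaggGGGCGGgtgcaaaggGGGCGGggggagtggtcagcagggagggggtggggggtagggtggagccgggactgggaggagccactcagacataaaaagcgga

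The first and second windows held none of the 3 motifs and had GC contents of 50.8% and 47.6%. The third had a GC content of 68.8% and 1 GC box, and the fourth 66.0%, 2 GC boxes and 1 CCAAT box. Over all 32851 RefSeq windows of this length the median GC content was 52.4%, 32.7% held a GC box, 33.8% a CCAAT box and 12.4% a TATA box. Among the other genes of the system, Igf1r had 2 GC boxes, and Igf2r and the first window of Igfbp2 had 3 each. Igfbp4 and Igfbp6, which were higher in both clones, had 0 GC boxes, at GC contents of 69.2% and 49.6%. Igf1, Igfbp3 and Igfbp5 had 0 GC boxes as well. Igfbp4 and Igfbp6 held 1 TATA box each, which no other window of the 10 genes did, and Igfbp6 held 2 CCAAT boxes. The window of Igfbp7 (chr5:77408046-77408295, minus strand), which stood above the controls in clone 1 but not in clone 2, had a GC content of 74.0% and 4 GC boxes. A link between these motifs and the signals was not tested.
Igfbp7: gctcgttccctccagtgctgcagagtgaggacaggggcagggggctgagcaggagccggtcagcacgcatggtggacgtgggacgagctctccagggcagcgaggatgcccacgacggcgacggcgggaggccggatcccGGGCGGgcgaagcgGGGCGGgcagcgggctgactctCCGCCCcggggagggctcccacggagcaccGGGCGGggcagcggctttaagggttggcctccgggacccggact

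Signal distributions differed between arrays. Over 22206 probe sets the upper quartile (75th percentile) ran from 8.87 log2 units in WT to 9.60 in clone 2, and the median difference, knockout minus control, was 0.18 over all probe sets and -0.02 after quantile normalization. Background is given by 5222 negative-control features, whose median ran from 5.12 to 5.22 and whose 90th percentile from 7.62 to 8.02 on the 4 arrays. Markers of the labelled tissue were at background. Of 10 colon epithelial markers, Epcam, Krt8, Krt18, Krt20, Cdh1, Cdx2 and Vil1 among them, 0 reached the 90th percentile of the negative controls on any array, and 7 were below their median on all 4. The mean signal of that list ran from 4.12 to 4.24 in the controls and from 4.21 to 4.24 in the clones. Among 7 measured fibroblast markers Col3a1, Pdgfrb and Dcn were above that percentile, and no marker of leukocytes or endothelium was (0 of 5 and 0 of 5). The mean signal of the fibroblast list was 7.41 in clone 1, 7.79 in clone 2, 7.80 in MOCK and 7.88 in WT. That order rests on Dcn, at 8.94, 11.18, 12.95 and 13.61 in the same order. Of the 7 markers 4 were higher and 3 lower in the knockout, with a median difference of 0.42 log2 units. After quantile normalization 3 were higher and 4 lower, with a median of -0.04. The part of these markers in the values of the IGF genes was not tested.

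Igf2 was the gene of the system that varied most. Its signal was 13.83 log2 units in clone 1, 6.28 in clone 2, 10.10 in MOCK and 8.19 in WT. Clone 1 was the highest of the 4 arrays and clone 2 the lowest, with both controls between them. Clone 1 lay 4.69 log2 units above the mean of the controls, a 25.8-fold difference. Clone 2 measured -2.87 log2 units against that mean, but its signal was not above background. Set against the 90th percentile of its negative controls (7.87), the mean of the controls was at least 2.42-fold higher. This holds for the mean only, since WT, at 8.19, lay much nearer to that percentile than MOCK, at 10.10. The control mean was 9.15 ± 1.35 (SD, n = 2), and MOCK and WT themselves differed by 1.91 log2 units, or 3.75-fold. The knockout mean of 10.06 ± 5.34 (SD, n = 2) describes neither clone.

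**Figure D1:**
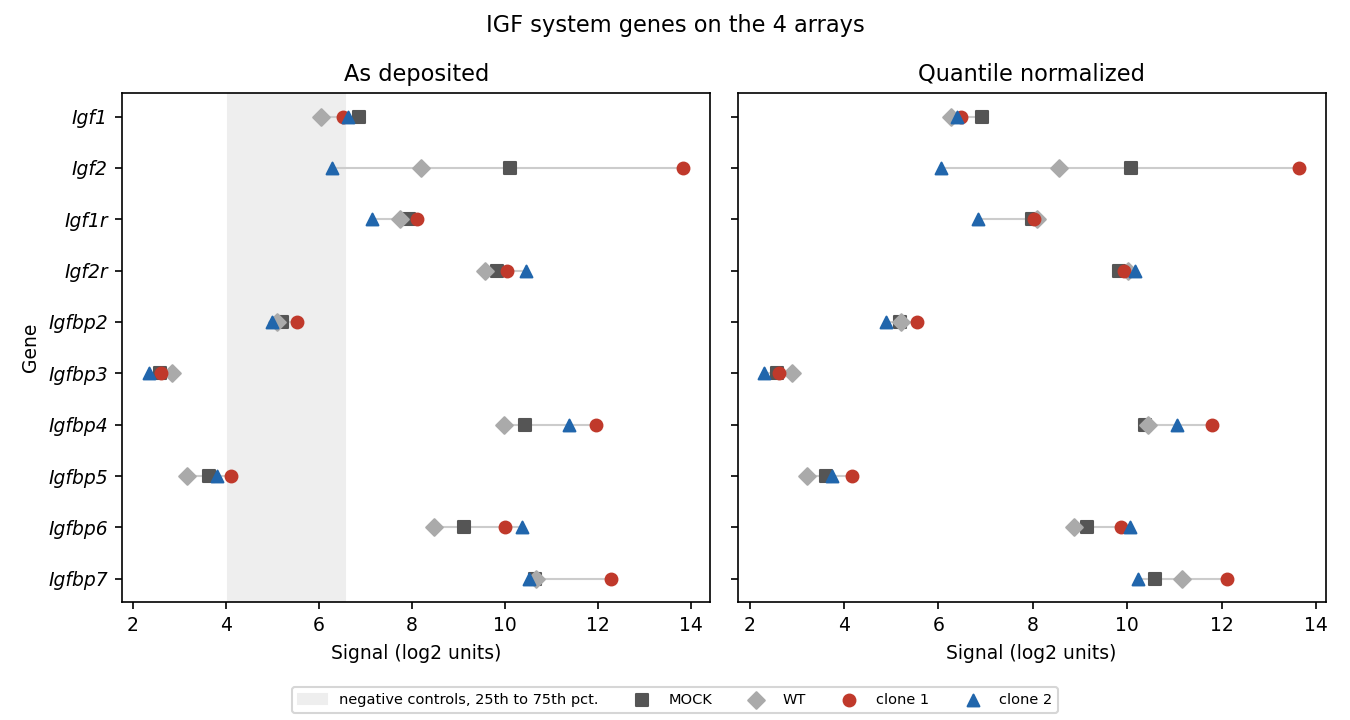
Log2 signal of the 10 IGF system genes on each array (squares MOCK, diamonds WT, circles clone 1, triangles clone 2), as deposited and after quantile normalization. The grey band in the left panel spans the 25th to 75th percentile of the negative controls, and values can be compared within a gene, not between genes. Igf2 spans 7.56 log2 units as deposited, with clone 1 at the right end and clone 2 inside the band.

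Between the clones Igf2 differed by a measured 7.56 log2 units. The signal in clone 2 was above 71.4% of the negative controls on that array, and set against their 90th percentile in its place clone 1 was at least 62.4-fold higher. The opposite levels of the clones chose the set, so their place among all probe sets only describes that choice, and it rests on the dim clone 2 signal. Of 22206 probe sets Igf2 ranked 1st for clone 1 above clone 2 and 3rd for the size of the difference in either direction, both as deposited and after quantile normalization, where the difference was 7.58. It was among 12 probe sets (0.054%) with clone 1 at least 1 log2 unit above both controls and clone 2 at least 1 below both, and among 11 (0.0495%) after quantile normalization. The difference between the controls ranked 42nd of all probe sets as deposited and 169th after quantile normalization, where it was 1.52.

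For Igf1, the other ligand, the groups overlapped. Its signal was 6.52 in clone 1, 6.63 in clone 2, 6.87 in MOCK and 6.05 in WT, so that both clones lay between the controls. The knockout mean exceeded the control mean by 0.12 log2 units (SE 0.41, limma adjusted p = 0.958), and the difference was -0.16 after quantile normalization. On each array the signal was above the 70th but below the 80th percentile of the negative controls, between 70.6% and 78.8% of them, so Igf1 was not clearly above background.

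The signalling receptor Igf1r gave 8.11 in clone 1, 7.14 in clone 2, 7.94 in MOCK and 7.74 in WT. Clone 2 was the lowest array, and clone 1 was within 0.17 log2 units of MOCK. The difference between clone 1 and clone 2 was 0.98 log2 units, or 1.18 after quantile normalization, in the same direction as that of Igf2. The clone 2 signal was above 83.7% of the negative controls, below their 90th percentile, so both differences rest on a dim value. After quantile normalization clone 2 lay below the control mean by 1.19 log2 units (a difference of -1.19) and clone 1 at -0.02. Knockout minus control was -0.22 (SE 0.43, limma adjusted p = 0.920).

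Igf2r, which clears IGF-2, gave 10.05 in clone 1, 10.45 in clone 2, 9.84 in MOCK and 9.58 in WT. Both clones were above both controls as deposited, by 0.55 log2 units between the means (SE 0.38, limma adjusted p = 0.726). After quantile normalization the 4 arrays lay within 0.33 log2 units and the groups overlapped, with a difference of 0.12.

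The binding proteins were of 3 kinds. Igfbp4, which binds the ligands in the extracellular space and is cut by the protease PAPP-A, gave 11.95 in clone 1, 11.37 in clone 2, 10.42 in MOCK and 9.99 in WT. Both clones stood above both controls. The knockout mean of 11.66 ± 0.41 was 2.75-fold above the control mean of 10.20 ± 0.31 (SD, n = 2 per group, difference 1.46, SE 0.40), which did not pass over all probe sets (limma adjusted p = 0.317). Igfbp6, which prefers IGF-2 to IGF-1, gave 9.99 in clone 1, 10.38 in clone 2, 9.13 in MOCK and 8.47 in WT. Again the groups did not overlap, with a mean of 10.18 ± 0.27 against 8.80 ± 0.47 (SD, n = 2 per group), a 2.62-fold difference of 1.39 log2 units (SE 0.40) that did not pass (limma adjusted p = 0.353). After quantile normalization the differences were 1.03 for Igfbp4 and 0.96 for Igfbp6, each still with both clones above both controls. These 2 genes lay on the same side in both clones, unlike Igf2.

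Igfbp7, a secreted protein of this family with low affinity for the IGFs, stood apart in 1 clone. It gave 12.27 in clone 1, 10.52 in clone 2, 10.65 in MOCK and 10.66 in WT. Clone 1 was 3.06-fold above the control mean, and clone 2 was within 0.14 log2 units of it. The controls differed by 0.01 log2 units as deposited but by 0.57 after quantile normalization, where WT was the higher at 11.17 against 10.60. On that scale clone 1, at 12.11, was still the highest array and clone 2, at 10.23, the lowest. The difference between the clones was 1.75 as deposited and 1.88 after quantile normalization, and knockout minus control was 0.74 (SE 0.53, limma adjusted p = 0.733).

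Igfbp2, Igfbp3 and Igfbp5 were dim on every array. Igfbp3 ran from 2.35 to 2.85 and Igfbp5 from 3.17 to 4.11 log2 units, below the median of the negative controls throughout, and Igfbp2 from 4.99 to 5.54, close to that median. Both clones stood above both controls for Igfbp5, by 0.56 log2 units between the means (limma adjusted p = 0.725), at signals at which no fold is given.

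**Figure D2:**
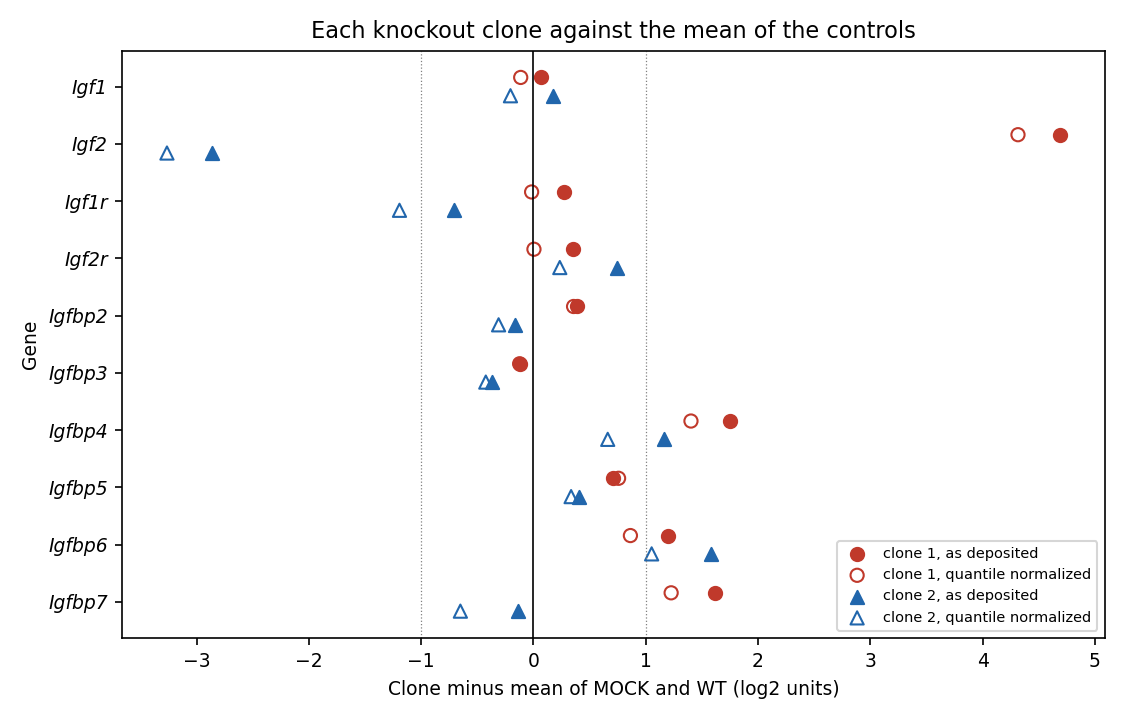
Difference of each knockout clone from the mean of MOCK and WT, in log2 units, for the 10 genes (circles clone 1, triangles clone 2, filled as deposited, open after quantile normalization). Dotted lines mark 1 log2 unit. Igf2 lies at 4.69 and -2.87 as deposited, while Igfbp4 and Igfbp6 lie right of 0 in both clones.

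As a set, 8 of the 10 genes were higher and 2 lower in the knockout than in the control, where 65.1% of all probe sets were higher. After quantile normalization 7 were higher and 3 lower, where 48.3% of all probe sets were higher. In limma's fit 0 of 10 passed an adjusted p of 0.05, against 9 of 22206 probe sets (0.0405%), and 2, Igfbp4 and Igfbp6, had an unadjusted p under 0.05, which 8.75% of all probe sets had. After quantile normalization 0 of 10 passed, against 0.0045% of all probe sets, and 2 had an unadjusted p under 0.05, against 8.92%. The median difference of the 10 was 0.55 log2 units as deposited and 0.20 after quantile normalization. Both clones were above both controls for 4 of 10 genes, against 27.8% of all probe sets, and for 3 of 10 after quantile normalization, against 19.2%. Both were below both controls for 0 of 10, against 11.7%, and again for 0 of 10 after quantile normalization, against 21.3%. Clone 1 was above and clone 2 below both controls for 4 of 10, against 5.78%. These 4 include Igf2, whose levels chose the set. Igf2 is also in each count at 1 log2 unit that follows, other than the 2 higher in clone 2. Nothing is read from the shares of those counts. In clone 1, 4 of 10 were at least 1 log2 unit from the control mean, against 8.61% of all probe sets, and all 4 were higher, against 6.31%. In clone 2 it was 3 of 10, against 13.7%, with 2 higher, against 11.8%, and 1 lower, against 1.91%. After quantile normalization it was 3 of 10 in clone 1, against 6.97%, and 3 of 10 in clone 2, against 9.96%. The genes in clone 2 were not the same on that scale. There 2 were lower, Igf2 and Igf1r, and Igfbp6 was higher, while Igfbp4, at 0.66, was no longer among them. The clones were at least 1 log2 unit apart for 2 of 10, Igf2 and Igfbp7, against 12.7%, and after quantile normalization for 3 of 10, with Igf1r added, against 11.3%. MOCK and WT were so for 1 of 10, Igf2, against 10.1%, or 4.52% after quantile normalization. Both clones were set against the same 2 controls, so their differences share the controls' error.

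Of 18 measured neighbours of Igf2 on distal chromosome 7, from Syt8 to Nap1l4, 11 were higher and 7 lower in the knockout (65.1% of all probe sets were higher), and 9 and 9 after quantile normalization (48.3%). In limma's test 0 passed, and 2 of the 18 were at least 1 log2 unit apart between the clones, a share near the 12.7% of all probe sets. Those were Lsp1, which encodes a leukocyte actin-binding protein, at 9.04 in clone 1, 6.58 in clone 2, 6.81 in MOCK and 7.01 in WT, and Syt8, a synaptotagmin, at 3.28, 5.27, 3.34 and 3.12 in the same order. Lsp1 was thus highest in clone 1, as Igf2 was, and Syt8 was below or near the median of the negative controls everywhere. Ins2, the insulin gene next to Igf2, ran from 3.75 to 4.37 and Th from 3.52 to 5.18, at background. Cd81, which encodes a tetraspanin, had a signal of 15.48 in clone 1, 16.02 in clone 2, 15.37 in MOCK and 14.08 in WT, and Mrpl23, which encodes a mitochondrial ribosomal protein, ran from 9.45 in WT to 10.82 in clone 1.

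The probe set on the other side of Igf2 was highest in the clone in which Igf2 was lowest. It is annotated to Mir675, a microRNA hairpin that RefSeq places inside the H19 gene, and it was looked up after the other values had been seen. The platform annotation lists a further accession for it that the RefSeq table used here does not name, so whether its signal is of the hairpin or of the host RNA was not tested. Its signal was 6.51 in clone 1, 9.25 in clone 2, 6.62 in MOCK and 6.52 in WT. Clone 2 alone stood apart, and the other 3 arrays lay within 0.10 log2 units of each other. Igf2 ran from 8.19 to 13.83 in those 3. After quantile normalization the difference, clone 1 minus clone 2, was -2.45. The 3 low arrays were below the 80th percentile of the negative controls (76.6% of them lay below the signal in clone 1), and clone 2 was above 96.1% of them. Set against the 90th percentile of the negative controls of clone 1 (7.82), clone 2 was at least 2.69-fold higher. The mature microRNA was not measured, and its arms are shown to identify the hairpin (RefSeq, GRCm38.p6, chromosome 7, minus strand, seed at bases 2 to 8 in capitals).
mmu-miR-675-5p: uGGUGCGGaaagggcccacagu
mmu-miR-675-3p: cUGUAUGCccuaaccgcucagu

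**Figure D3:**
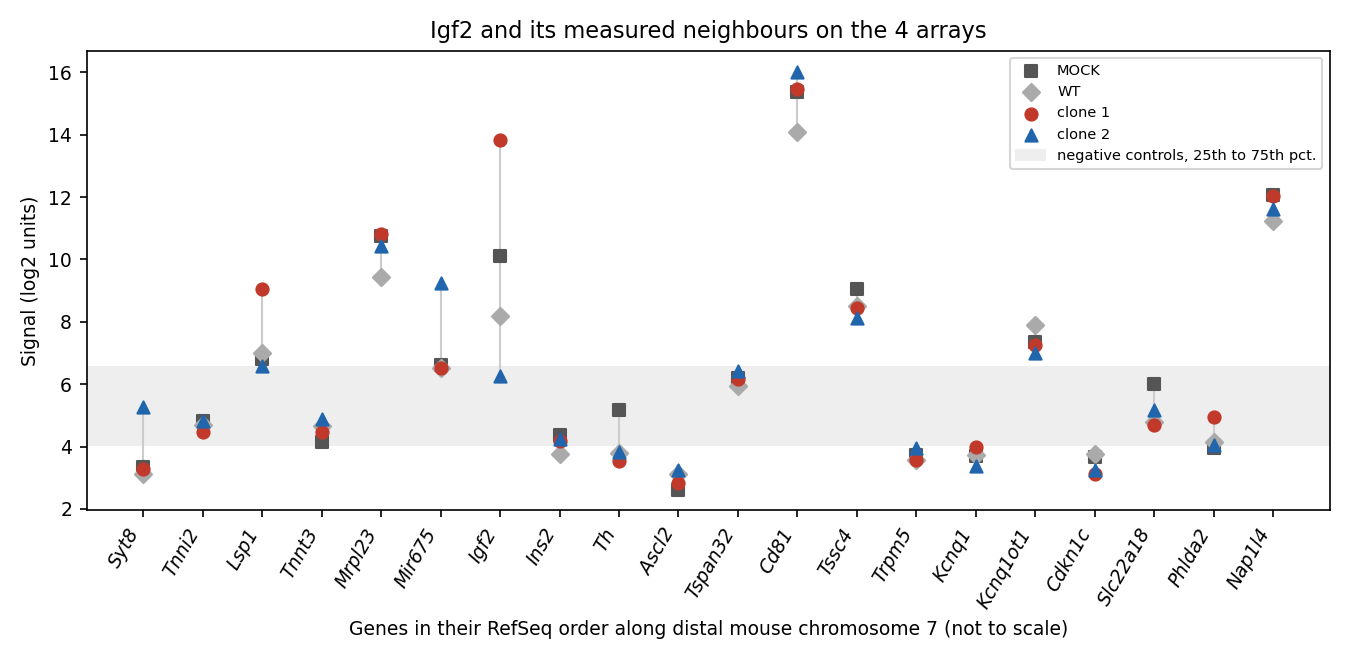
Log2 signal of Igf2 and its measured neighbours in their RefSeq order along distal chromosome 7 (squares MOCK, diamonds WT, circles clone 1, triangles clone 2), with the 25th to 75th percentile of the negative controls in grey. Igf2 and the adjacent probe set annotated to Mir675 have their highest arrays in different clones, clone 1 at 13.83 and clone 2 at 9.25.

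Other imprinted genes were mostly at background. Of 15 measured genes of the imprinted network, in which many growth-related imprinted genes are expressed together in the embryo, 10 were below the median of the negative controls on all 4 arrays, among them Cdkn1c, Mest, Peg3 and Grb10. The list split 8 higher and 7 lower (65.1% of all probe sets were higher), and its median was 0.01 log2 units, against 0.18 over all probe sets. After quantile normalization it split 6 and 9 (48.3%), and its median was -0.11, against -0.02. In limma's test 0 passed. The clones were at least 1 log2 unit apart for 4 of the 15 (12.7% of all probe sets). Dlk1, a Notch-like membrane protein of fetal tissues that is itself paternally expressed, stood at 4.27 in clone 1, 9.95 in clone 2, 4.26 in MOCK and 4.03 in WT. Ppp1r9a, which encodes the actin-binding protein neurabin, stood at 3.55, 5.80, 3.70 and 3.82 in the same order. For both genes clone 2 alone exceeded the negative-control median, so that no fold is given. Dlk1 in clone 2 was above 97.2% of the negative controls, and Ppp1r9a above only 62.5%, so Ppp1r9a was not clearly above background on any array. Of the other two, Slc38a4, an amino acid transporter, was at background on every array, and Dcn, the matrix proteoglycan decorin, stood at 8.94 in clone 1, 11.18 in clone 2, 12.95 in MOCK and 13.61 in WT.

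The genes whose profile over the 4 arrays lay closest to that of Igf2, by the root mean square distance between profiles centred on their own means, were taken from 18531 named genes. The closest was Hcfc1r1, at a distance of 1.04 log2 units, with 9.18 in clone 1, 3.95 in clone 2, 6.83 in MOCK and 6.25 in WT. Lpar4, a receptor for lysophosphatidic acid, followed at 1.14, with 10.11, 4.39, 8.98 and 7.41 in the same order. Cavin2, a component of caveolae, lay at 1.21, with 11.15, 5.87, 8.80 and 8.81. Slc38a3, Pcdh7 and Niban1 lay at 1.42, 1.44 and 1.51. Each of the 6 was highest in clone 1 and lowest in clone 2, and none spanned as wide a range as Igf2, the widest being 5.72 for Lpar4. In clone 2 all 6 were below the 90th percentile of the negative controls (7.87), so these ranges and distances rest on dim values. Hcfc1r1, Lpar4, Slc38a3 and Pcdh7 were below their median there (5.20), and Pcdh7 was below the 90th percentile on every array. The same 6 genes came out after quantile normalization. With only 4 arrays the likeness is a description, and ranking by Pearson correlation instead shared 0 of the 6.

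**Figure D4:**
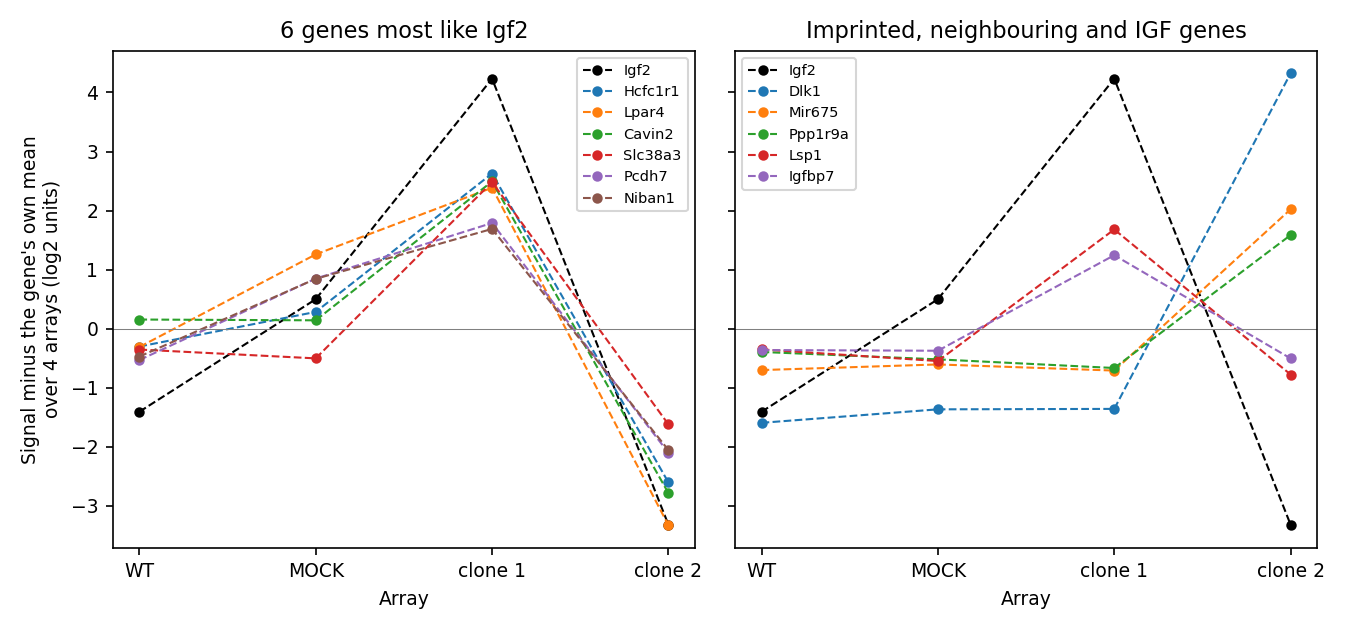
Log2 signal minus the gene's own mean over the 4 arrays, for Igf2 (black) with the 6 genes closest to it (left), and with Dlk1, the probe set annotated to Mir675, Ppp1r9a, Lsp1 and Igfbp7 (right). Dashed lines join the arrays of 1 gene and carry no order. Dlk1, Mir675 and Ppp1r9a have their highest value in clone 2, where Igf2 has its lowest. The Ppp1r9a signal there is above only 62.5% of the negative controls.

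Regulators of Igf2 were read next, a list that holds both RNA-binding proteins and transcriptional factors. Igf2bp1, Igf2bp2, Hmga1 and Zbed6 of that list were not among the measured genes. Of 9 measured, 5 were higher and 4 lower, where 65.1% of all probe sets were higher, and 0 passed. The median difference was 0.27 log2 units, against 0.18 over all probe sets. After quantile normalization the sign of the median turned, to -0.17, against -0.02, with 4 higher and 5 lower (48.3% of all probe sets higher). Hmga2, an architectural factor that promotes Igf2bp2 expression, had a signal of 5.82 in clone 1, 7.04 in clone 2, 5.35 in MOCK and 5.13 in WT, highest where Igf2 was lowest (difference 1.19, SE 0.46, limma adjusted p = 0.497). It was dim on every array, above at most 82.4% of the negative controls, in clone 2. Lin28b, an RNA-binding protein that blocks let-7, was also highest in clone 2, at 6.05 against 4.95 to 5.55 elsewhere, near background. Plagl1, a zinc finger activator of the imprinted network, stood at 8.88 in clone 1, 8.14 in clone 2, 8.39 in MOCK and 8.74 in WT, and Plag1, an activator of Igf2 promoters, at 6.66, 6.04, 5.69 and 6.09. Plag1 was highest in clone 1 on both scales, but was dim on every array, above at most 78.7% of the negative controls. Plagl1 was highest in clone 1 as deposited, but in WT after quantile normalization, at 9.14 against 8.77 in clone 1. Zfp57, which protects imprints, differed by 0.54 (SE 0.40) and the CTCF paralogue Ctcfl by -0.40 (SE 0.39), both near background, and Ctcf itself ran from 12.12 to 12.71.

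Proteases and other carriers of the IGFs were mostly at background. Of 9 measured, 4 were higher and 5 lower on both scales, where 65.1% of all probe sets were higher as deposited and 48.3% after quantile normalization. The median difference was -0.05 as deposited and -0.17 after quantile normalization, against 0.18 and -0.02 over all probe sets. Of the 9, 5 were below the median of the negative controls on every array, and 0 passed. Stc2, which encodes an inhibitor of the PAPP-A protease, stood at 10.41 in clone 1, 9.98 in clone 2, 9.95 in MOCK and 8.81 in WT (difference 0.81, SE 0.45, limma adjusted p = 0.661). Both clones were above both controls, by 0.03 log2 units at the nearest, and the groups overlapped after quantile normalization. Pappa itself and Pappa2 ran from 3.11 to 4.25, at background, and Stc1 from 4.14 to 5.26. Htra1, a secreted serine protease, ran from 10.99 to 11.55, with both clones below both controls (difference -0.43, SE 0.37), and -0.88 after quantile normalization.

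Downstream of the receptors, 9 of 15 insulin receptor and adaptor genes and 13 of 14 PI3K-AKT-FOXO genes were above the 90th percentile of the negative controls on some array. Of the 15 adaptor and receptor genes, 11 were higher and 4 lower, where 65.1% of all probe sets were higher, and 7 and 8 on the quantile scale, where 48.3% were. The median difference was 0.34 log2 units as deposited and -0.0043 on the quantile scale, and 0 passed the limma test. Sh2b2, an adaptor of receptor kinases, stood at 6.76 in clone 1 and at most 5.26 on the other 3 arrays. It was dim on every array, above 80.0% of the negative controls in clone 1 and at most 53.6% elsewhere. Gab1, a docking protein, gave 9.58 in clone 1, 8.46 in clone 2, 8.42 in MOCK and 8.21 in WT, so that both were highest in clone 1. Irs1, the main substrate of IGF1R, stood at 9.24, 9.60, 9.83 and 10.56 in the same order, with both clones below both controls. Its difference was -0.77 (SE 0.41, limma adjusted p = 0.641), and -1.24 after quantile normalization. Of the 14 PI3K-AKT-FOXO genes, 11 were higher and 3 lower (8 and 6 on the quantile scale), with a median of 0.47 as deposited and 0.03 on the quantile scale, and 0 passed. Pik3r2, a regulatory subunit of PI3K, differed by 0.99 (SE 0.37, limma adjusted p = 0.484), and Eif4ebp1, the translation repressor that mTOR inactivates, by 0.83 (SE 0.41). Foxo3, a transcription factor that AKT restrains, stood at 8.08 in clone 1, 9.78 in clone 2, 8.77 in MOCK and 8.30 in WT, highest in clone 2.

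Sorting by mannose 6-phosphate, the other task of IGF2R, involves 8 measured genes, of which 0 passed. As deposited 7 were higher and 1 lower, where 65.1% of all probe sets were higher, and 6 and 2 on the quantile scale, where 48.3% were. The medians were 0.48 as deposited and 0.09 on the quantile scale, against 0.18 and -0.02 over all probe sets. Gga3, an adaptor that carries the receptors from the Golgi, stood at 9.59 in clone 1, 10.65 in clone 2, 9.24 in MOCK and 8.82 in WT (difference 1.10, SE 0.44, limma adjusted p = 0.519). Nagpa, the enzyme that uncovers the mannose 6-phosphate tag, stood at 7.59, 8.34, 6.94 and 6.97 (difference 1.02, SE 0.40, limma adjusted p = 0.512). Both had both clones above both controls on both scales, as had 27.8% of all probe sets as deposited and 19.2% on the quantile scale. For Nagpa only clone 2 was above the 90th percentile of the negative controls. Over the 83 genes of all these lists 0 passed the limma test, against 0.0405% of all probe sets. An unadjusted p under 0.05 was found for 6, against 8.75% of all probe sets.

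**Figure D5:**
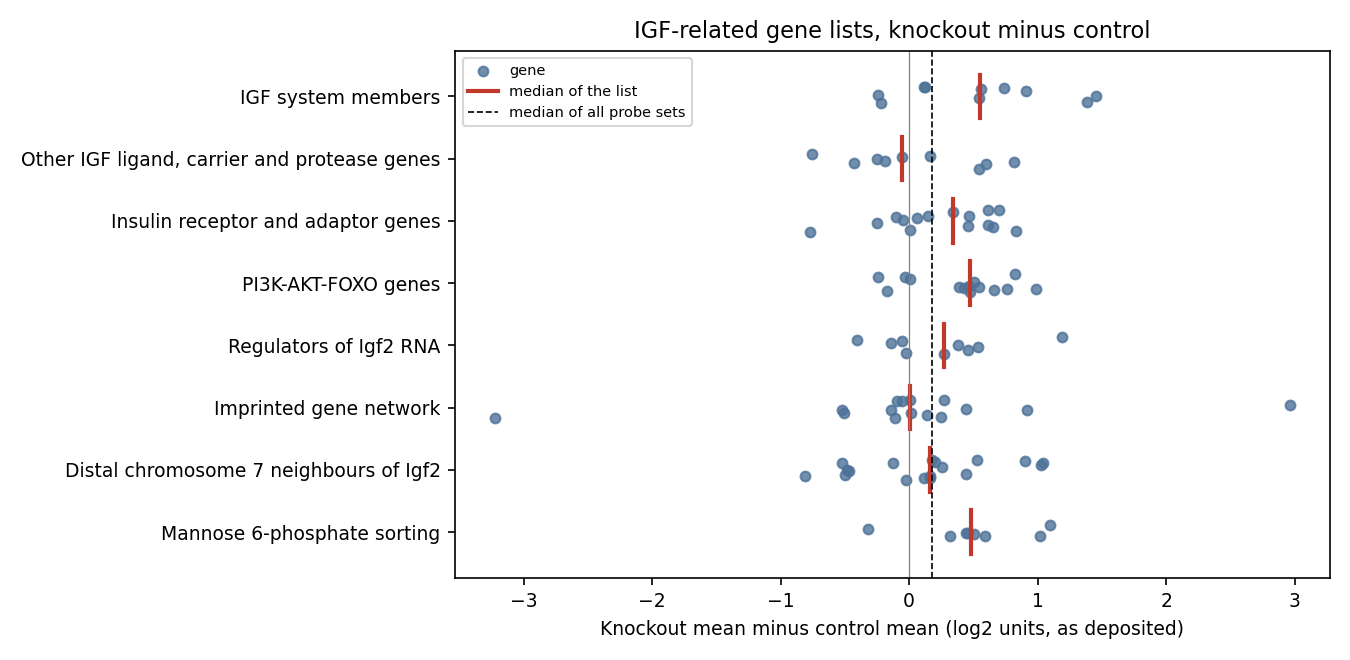
Knockout mean minus control mean in log2 units, as deposited, for each measured gene of the 8 lists (points), with the median of each list in red and the median of all probe sets, 0.18, as a dashed line. Most points lie within 1 log2 unit of 0, and the farthest are Dcn at -3.22 and Dlk1 at 2.96.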

How the data were processed

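RNA of 4 MC38 samples was measured on Clariom S mouse arrays. Per the submitters' processing notes, the authors made the expression values with the Transcriptome Analysis Console. That the deposited values are log2 signals was read from their range. Its version, normalization, summarisation and genome build are not stated, and scanner files were not used here. Groups came from the sample titles, since a cell-type label names the knockout on all 4 samples. Of 28846 features, 6640 control features were left out and 22206 probe sets tested. Probe sets were named from the platform annotation through RefSeq (19572 with 1 symbol, 2634 with none), and the one with the highest mean stood for a gene.

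Knockout minus control was fitted with limma 3.58.1 (R 4.3.3; lmFit, eBayes, no covariate), tested on simulated data, with Benjamini-Hochberg adjustment over all probe sets and calls at an adjusted p under 0.05. Single arrays were compared as values, at 1 log2 unit. The number of arrays limits the precision. Alternatives were quantile normalization, median centring, filters on dim signal, eBayes with trend and robust, other reference arrays, all probe sets of a gene, and each array left out. Promoter and microRNA sequences came from RefSeq (GRCm38.p6), and all 10 genes had a promoter window.

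The genes and lists were chosen with earlier results of these data known. Named are all 10 genes, and from each list any called gene, up to 4 with the largest knockout difference and up to 3 with the largest difference between the clones, and the 6 genes most like Igf2 (predicted and clone-named genes passed over). Others were chosen after their values were seen.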

Additional observations from a re-analysis of the deposited data

Results flagged for a closer look

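For 4 of the 10 genes clone 1 lay above both controls and clone 2 below both as deposited, an opposite move of the clones that rests on single arrays and was not tested. Of all probe sets 5.78% did so, but the 4 include Igf2, whose opposite levels chose the set, so nothing is read from that share. Clone 1 exceeded clone 2 by 7.56 log2 units for Igf2, by 1.75 for Igfbp7, by 0.98 for Igf1r and by 0.55 for Igfbp2. The Igf2 and Igf1r signals of clone 2 were below the 90th percentile of the negative controls, and the signals of Igfbp2 were near the median of the negative controls. After quantile normalization the opposite order held for Igf2, Igfbp7 and Igfbp2, and not for Igf1r, whose clone 1 signal of 8.02 lay below the 8.09 of WT.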

How the results depend on the processing

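The Igf2 differences of each clone from the controls and between the clones moved by less than the spread of the controls under quantile normalization and median centring. Against MOCK or WT alone, a change whose size the gap between them sets, clone 1 lay at 3.74 or 5.64 and clone 2 at -3.82 or -1.91. With each array left out, limma called 0 to 1 of the 10 genes, the 1 being Igf2 both without clone 1 and without clone 2, where the lone clone is assumed to vary like the controls. Its levels chose the set, so that call tests nothing, and of the other 9 genes none was called in any of these fits. In these fits it called 0 to 4 genes of the lists: Dlk1, Ppp1r9a, Dcn and Syt8 without clone 1, and Dcn and Lsp1 without clone 2. Keeping probe sets whose mean reached the overall median called 2 (Dlk1 and Dcn), and the filter at the 25th percentile and eBayes with trend and robust 1 each (Dcn). Over all probe sets the calls were 9 as deposited, 1 after quantile normalization, 196 and 125 with these filters, 340 with trend and robust, 1 without MOCK, 0 without WT, 529 without clone 1 and 149 without clone 2. Ranking by Pearson correlation shared 0 of the 6 genes most like Igf2. Knockout minus control turned sign for Igf1 at -0.16 after quantile normalization and -0.017 after median centring, and for Igfbp2 at -0.024 after median centring. With single arrays left out it ran from -0.29 to 0.53 for Igf1, from -0.71 to 0.27 for Igf1r, from -0.16 to 0.39 for Igfbp2 and from -0.14 to 1.61 for Igfbp7. The adjusted p of Igfbp4 and Igfbp6 in these fits ran from 0.162 to 1.00 and from 0.129 to 1.00. The cause of these changes was not tested. No paired analysis was possible because the controls carry no replicate numbers in the labels. Signals near the negative controls limit what can be said of Igf1, Igfbp2, Igfbp3, Igfbp5, of Igf1r, below the 90th percentile in clone 2 and MOCK, and of Igf2 in clone 2.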
